A study of Homo sapiens with 3 samples.

Results

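Amino acid transporters are membrane proteins that move amino acids across the plasma membrane and out of or into lysosomes. The set was chosen by platform gene symbol, as members of the families SLC1A, SLC3A, SLC6A, SLC7A, SLC36A, SLC38A and SLC43A, and held 62 of the 20399 genes on the arrays, read by 85 probes. Of these symbols 58 name transporters or their subunits, while SLC7A5P1 and SLC6A10P are pseudogenes, SLC7A11-AS1 is an antisense RNA and SLC7A6OS lies beside SLC7A6 without belonging to its family. The SLC6A family also holds carriers of neurotransmitters, taurine and creatine, so the set is wider than amino acids in the strict sense.

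The cells were LNCaP, an established human prostate cancer line that responds to androgen, transfected with small interfering RNA (siRNA). The siRNAs were directed against SHOT-RNAs, sex hormone-dependent fragments of transfer RNAs. The knockdown of the 5' fragment of tRNA LysCUU (5'-Lys KD) and that of the 5' fragment of tRNA AspGUC (5'-Asp KD) used 20 nM siRNA, the knockdown of the 3' fragment of tRNA AspGUC (3'-Asp KD) used 10 nM, and all cells were harvested after 72 h. Each was hybridised once against LNCaP cells given siRNA to Renilla luciferase, on 1 two-colour array per knockdown, so there is no replicate and no test, and every difference below describes these arrays.

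Cystine, glutamate, aspartate and lysine enter cells through different carriers. The SLC1A family takes up glutamate, aspartate and small neutral amino acids. The SLC7A family holds the cationic carriers, which bring in lysine and arginine, and light chains that work only when bound to a heavy chain of the SLC3A family. The SLC38A family carries glutamine and other small neutral amino acids, and some of its members and of the SLC36A family sit in the lysosome, from which amino acids signal to the kinase mTORC1. The transcription factor ATF4 is known to induce many of these genes when amino acids are scarce.

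Ratios below are log2 of the first over the second signal column, centred on each array's median over 10200 measured genes, those with a mean log2 signal of at least 7.03 (an intensity of 131). By the dye labels the first column is Cy3 and the knockdown, and the second is Cy5 and the control. The column names give the same roles on the 5'-Lys array and the opposite ones on both Asp arrays, so signs on the Asp arrays would turn if the column names were right. By the dye labels the dyes were not swapped on any array. A gene's difference between dyes and its difference between treatments then cannot be told apart, also where it recurs on all arrays. The 10 spike-in probes had like first over second ratios on all arrays (r of at least 0.999 over these probes), so "higher" and "lower" are written here for Cy3 against Cy5. The median SD of a measured gene's Cy5 signal over the 3 arrays was 0.12 on the log2 scale. It describes the spread between arrays and not the error of a ratio within an array, which could not be estimated without replicates. By the column names the Cy5 columns would hold 1 control and 2 knockdowns, and this SD, as well as any ratio to the mean Cy5 of the 3 arrays, would then mix treatments. All 7 LNCaP markers analysed here were measured (KLK2, KLK3, TMPRSS2, FOLH1, HOXB13, KRT8 and KRT18), and of 11 markers of fibroblasts, endothelium, leukocytes and basal epithelium only COL1A1 was, with signals of 87.4 to 199. Where 3 ratios follow each other, they stand in the order 5'-Lys array, 5'-Asp array, 3'-Asp array. The medians of the 7 LNCaP markers were -0.40, -0.01 and 0.15. The androgen-induced KLK3 had log2 ratios of -0.70, -0.71 and -0.97 and KLK2 -0.40, -0.73 and -1.01, while TMPRSS2, also androgen-induced, had -0.52, 0.58 and 0.20. HOXB13 had -0.74, -0.05 and -0.23, FOLH1 -0.19, 0.28 and 0.15, KRT8 0.65, 0.26 and 0.34, and KRT18 0.02, -0.01 and 0.18. The part of these markers in the transporter values was not tested.

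Of the 62 genes 25 were measured, among them SLC7A6OS, SLC7A5P1 and SLC6A10P, which are no transporter genes. The measured members as a set stood close to the centre of each array. Their median log2 ratio was -0.04 on the 5'-Lys array, -0.13 on the 5'-Asp array and -0.09 on the 3'-Asp array, where the median of all measured genes is 0 by centring. On the 5'-Lys array 4 of the 25 (16.0%) were at least 1.5-fold away from 0, beside 11.4% of all measured genes. On the 5'-Asp array 1 of 25 (4.0%) was, beside 7.89%, and on the 3'-Asp array 3 of 25 (12.0%) were, beside 4.86%. These shares rest on 4, 1 and 3 genes and their difference from the background was not tested. At 2-fold stood 0 of 25 on the 5'-Lys array, beside 1.96% of all measured genes, 0 of 25 on the 5'-Asp array, beside 0.892%, and 1 of 25, SLC7A11, on the 3'-Asp array, beside 0.49%. Within 1.5-fold on all arrays lay 20 of the 25.

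**Figure D1:**
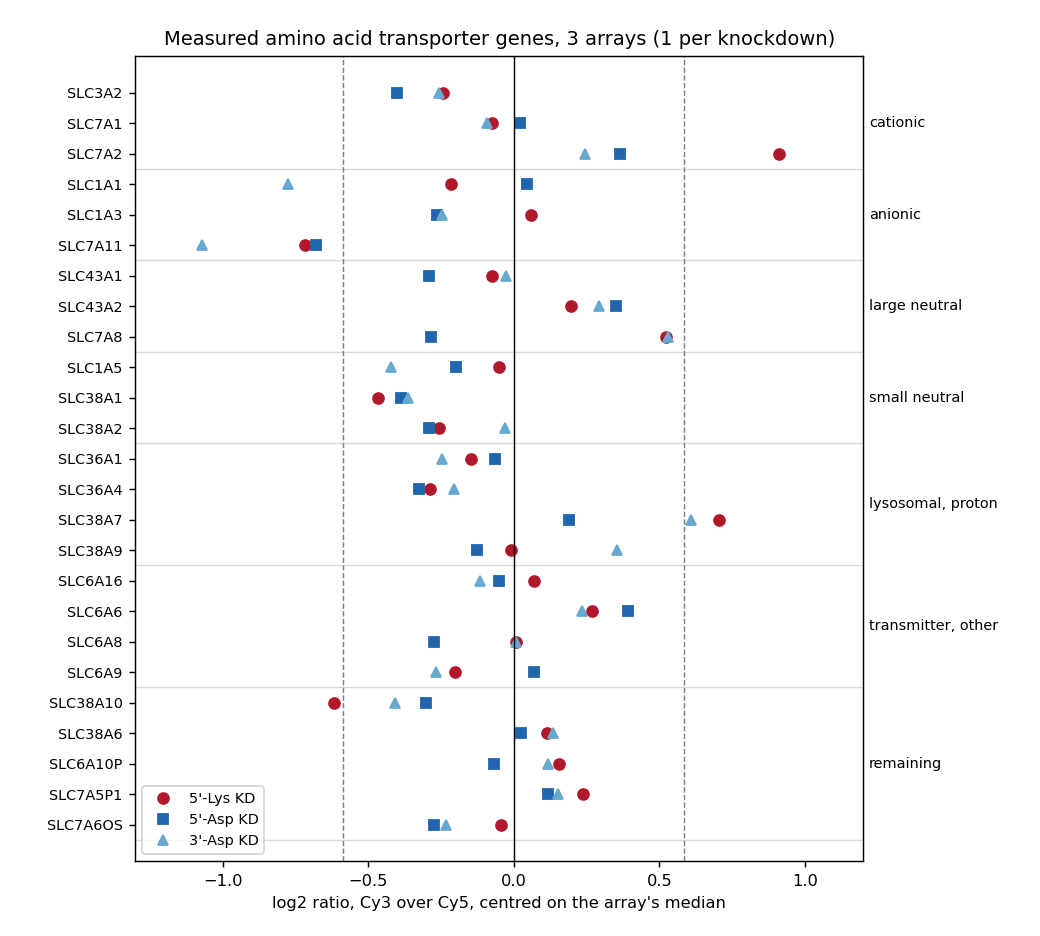
Log2 ratios (Cy3 over Cy5) of the 25 measured genes on the 3 arrays, ordered by role, with 1 point per array and dashed lines at 1.5-fold. SLC7A11 lies left of the dashed line on all arrays, SLC7A2 right of it only on the 5'-Lys array and SLC1A1 left of it only on the 3'-Asp array.

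Among the measured members SLC7A11 stood furthest from the centre on both Asp arrays, while on the 5'-Lys array SLC7A2 stood further out. SLC7A11 encodes xCT, the light chain that exchanges extracellular cystine for intracellular glutamate. Its intensity was 4786 in Cy3 and 7779 in Cy5 on the 5'-Lys array, 2617 and 4132 on the 5'-Asp array, and 2591 and 5433 on the 3'-Asp array. Cy3 was thus the dimmer column on every array. These are log2 ratios of -0.72, -0.68 and -1.07, or 1.64-fold, 1.60-fold and 2.10-fold lower. By the column names SLC7A11 would be lower after 5'-Lys KD and higher after both Asp knockdowns.

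The spread of SLC7A11 between arrays was wide, with an SD of its Cy5 signal of 0.33. Relative to the column's median over measured genes, its log2 Cy5 signal was 2.86, 2.19 and 2.52, and its log2 Cy3 signal 2.14, 1.5 and 1.43. The 3 Cy3 values lie below all 3 Cy5 values, though the highest Cy3 (2.14) and the lowest Cy5 (2.19) nearly touch. With the mean Cy5 of the 3 arrays as the control, after Aquantile scaling of the arrays, the 5'-Lys ratio was -0.34, within 1.5-fold, and the 5'-Asp ratio -1.06. Without that scaling they were -0.38 and -1.02. A single probe reads this gene. Its antisense neighbour SLC7A11-AS1 lay at the floor, with intensities of 2.2 to 4.5.

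The heavy chain that SLC7A11 needs at the membrane is SLC3A2 (4F2hc), which also serves SLC7A5, SLC7A6, SLC7A7 and SLC7A8. Its intensity was 2742 in Cy3 and 3205 in Cy5 on the 5'-Lys array, 1764 and 2303 on the 5'-Asp array, and 2055 and 2449 on the 3'-Asp array. It was the dimmer in Cy3 on each array, with log2 ratios of -0.24, -0.40 and -0.26, none of which reached 1.5-fold.

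SLC1A1 encodes EAAT3, a carrier of glutamate, aspartate and cysteine, and is the measured aspartate carrier with the larger difference. Its intensity was 944 in Cy3 and 1084 in Cy5 on the 5'-Lys array, 972 and 931 on the 5'-Asp array, and 539 and 919.8 on the 3'-Asp array. The Cy3 signal of the 3'-Asp array stands below the other 5 values, which lie between 919.8 and 1084. The log2 ratios were -0.22, 0.04 and -0.77, the last 1.71-fold lower, and the Cy5 signal had an SD of 0.04 over the arrays. The 3'-Asp ratio stayed between -0.85 and -0.73 under 9 other settings that kept the direction.

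The other aspartate and glutamate carriers were dim. SLC1A3 (EAAT1) was measured, with log2 ratios of 0.06, -0.26 and -0.24 beside an SD of 0.24 for its Cy5 signal. SLC1A2 (EAAT2), a carrier of glial cells and neurons, had intensities of 4.4 to 6.3, near the floor in all columns. SLC7A13, a carrier of aspartate and glutamate in the kidney, had 4.7 to 14.2. SLC1A7 (EAAT5) lay above the floor limit but below the filter, with intensities of 23.9 to 37.1 and ratios of -0.17, 0.17 and 0.02. SLC1A6 (EAAT4) had 19.2, 15.7 and 17.3 in Cy5 and 3.7, 3.5 and 3.3 in Cy3, a gap between columns that was alike on all arrays. Its Cy3 signals lay under those of the negative control probe (4.59, 4.1 and 3.88), so SLC1A6 counts as near the floor and the size of the gap is uncertain.

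Among the lysine carriers SLC7A2 differed on the 5'-Lys array. SLC7A2 encodes CAT2, a carrier of lysine, arginine and ornithine. Its intensity was 2636 in Cy3 and 1386 in Cy5 on the 5'-Lys array, 1743 and 1336 on the 5'-Asp array, and 1722 and 1452 on the 3'-Asp array. The 5'-Lys Cy3 signal stands above the other 5, which lie between 1336 and 1743, and every Cy3 signal lies above every Cy5 signal. The log2 ratios were 0.91 (1.88-fold), 0.37 and 0.24, beside a Cy5 SD of 0.13. The first ranged from 0.77 to 0.91 under 10 other settings that kept the direction.

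SLC7A1 (CAT1), the widely expressed carrier of the same amino acids, was nearly level. Its log2 ratios were -0.08, 0.02 and -0.09 and its Cy5 SD 0.05. SLC7A7 (y+LAT1), which with SLC3A2 exports lysine and arginine in exchange for neutral amino acids, lay below the filter. It had 70.1 in Cy3 and 15.4 in Cy5 on the 5'-Lys array, 7.7 and 9.0 on the 5'-Asp array, and 21.8 and 10.1 on the 3'-Asp array. On the 5'-Lys array both signals lie above the floor limit and differ 4.5-fold, but the Cy5 signal is close to its limit of 14.1. Of the other 4 signals 3 lie under their limits, so SLC7A7 counts as near the floor and the size of its difference is uncertain.

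SLC7A6 (y+LAT2), with the same function, had intensities of 37.5 to 74.8 and log2 ratios of 0.27, 0.32 and 0.52. SLC7A9, the light chain that takes up cystine and basic amino acids in the kidney, had 22.1 in Cy3 and 7.9 in Cy5 on the 5'-Lys array and 5.1 to 7.1 elsewhere, near the floor throughout. Its heavy chain SLC3A1 had 2.7 to 5.4. SLC7A3 (CAT3) and SLC6A14, a carrier of neutral and cationic amino acids, were also at the floor. Of 9 genes in the lysine group 3 were therefore measured, and 1 of these was past 1.5-fold, on the 5'-Lys array alone, where 11.4% of all measured genes were.

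**Figure D2:**
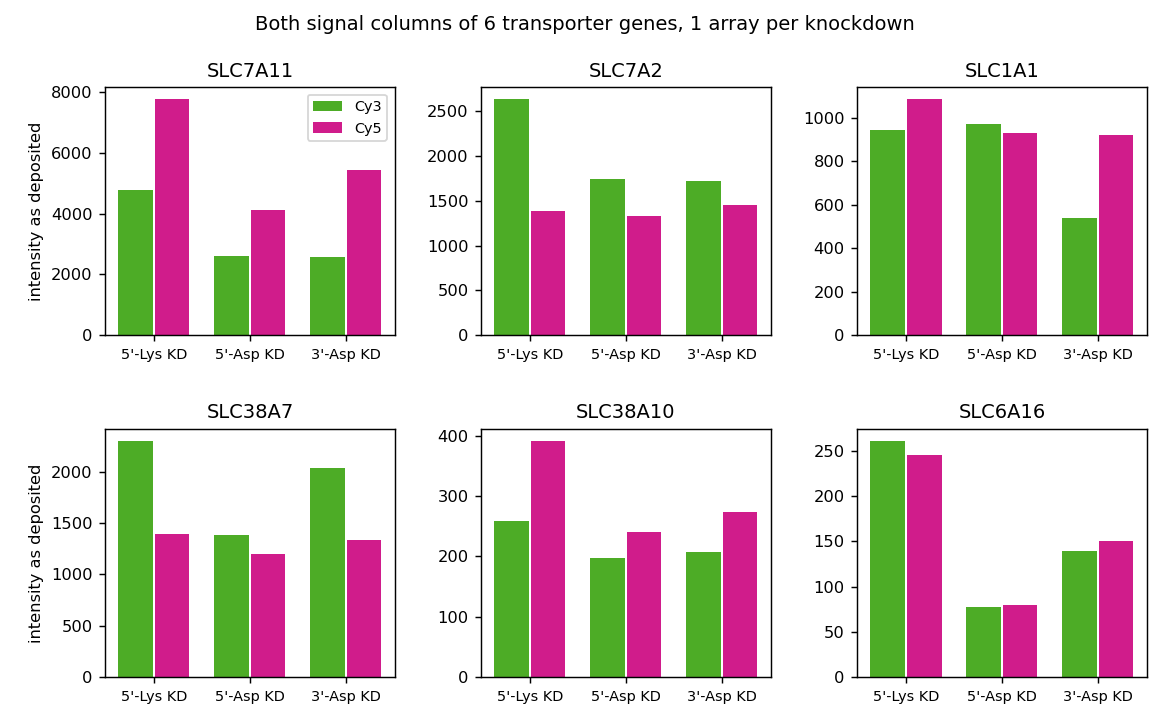
Intensities of both columns as deposited (Cy3 left, Cy5 right in each pair) for the genes past 1.5-fold and SLC6A16, on 1 array per knockdown, with bars from 0 and no error bar since n = 1. SLC7A11 is dimmer in Cy3 in all pairs, SLC1A1 only clearly so on the 3'-Asp array, and SLC6A16 changes between arrays in both columns together.

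The carriers of large neutral amino acids, which bring in leucine and its relatives, had 3 measured genes of 4, none of which was past 1.5-fold. SLC7A8 (LAT2) had mean log2 ratios of 0.52, -0.28 and 0.53, from 2 probes that differed. The brighter one, with intensities of 540 to 1127, gave 0.79, 0.37 and 0.65, and the dimmer one, with 12.6 to 40.8, gave 0.25, -0.94 and 0.41. By the brighter probe alone LAT2 was thus past 1.5-fold on the 5'-Lys and 3'-Asp arrays, and with the mean Cy5 as the control on the 3'-Asp array (0.70). SLC43A2 (LAT4) was slightly above 0 on each array (0.20, 0.35 and 0.29), and SLC43A1 (LAT3), first known as a gene overexpressed in prostate cancer, had -0.07, -0.29 and -0.03.

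SLC7A5 (LAT1), the main leucine importer of many tumours, fell just short of the filter, and was singled out after its values were seen. Its intensity was 200.4 in Cy3 and 123 in Cy5 on the 5'-Lys array, 67.7 and 65.2 on the 5'-Asp array, and 98.3 and 90.8 on the 3'-Asp array. Only on the 5'-Lys array do the columns differ, by 1.61-fold (log2 ratio 0.69). Over the arrays the signal of SLC7A5 had an SD of 0.34 in Cy5 and 0.68 in Cy3. The probe of the pseudogene SLC7A5P1 was brighter, at 1022 to 1291, with ratios of 0.24, 0.12 and 0.15. It may bind related transcripts, so its values are uncertain.

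The 3 measured small neutral and glutamine carriers all had ratios below 0 on all arrays, except that SLC1A5 had 0.09 on the 5'-Lys array with the mean Cy5 as the control, and none reached 1.5-fold against its own array's Cy5. SLC38A1 (SNAT1) had log2 ratios of -0.47, -0.39 and -0.36, with 2 probes whose ratios differed by an SD of 0.11 or less. SLC38A2 (SNAT2), its neighbour on chromosome 12, had -0.26, -0.29 and -0.03. SLC1A5 (ASCT2), a glutamine importer, had -0.05, -0.20 and -0.42, and -0.63 on the 3'-Asp array with the mean Cy5 of the 3 arrays as the control. All would be above 0 on the Asp arrays by the column names. SLC1A4 (ASCT1), which carries alanine, serine and cysteine, lay below the filter with 37.3 in Cy3 and 82.7 in Cy5, 22.9 and 41.8, and 10.8 and 44.0. Cy3 was the dimmer on each array, and its last value is below the floor limit of 19.4.

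Of the lysosomal and proton-coupled carriers SLC38A7 (SNAT7), which exports glutamine and asparagine from lysosomes, differed. Its intensity was 2301 in Cy3 and 1395 in Cy5 on the 5'-Lys array, 1389 and 1203 on the 5'-Asp array, and 2041 and 1335 on the 3'-Asp array. Relative to the column's median over measured genes, log2 Cy3 was 1.09, 0.59 and 1.09 and log2 Cy5 0.38, 0.41 and 0.49, so every Cy3 value lies above every Cy5 value. The log2 ratios were 0.71 (1.63-fold), 0.19 and 0.61 (1.53-fold), beside a Cy5 SD of 0.06. On the 3'-Asp array the ratio was 0.54, within 1.5-fold, when centred on all named genes or without the signal filter.

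SLC38A9, the lysosomal arginine sensor, had -0.01, -0.13 and 0.35, SLC36A1 (PAT1) -0.15, -0.06 and -0.25, and SLC36A4 (PAT4) -0.29, -0.33 and -0.21. SLC36A2 and SLC36A3 were at the floor. SLC38A10 was 1.53-fold lower on the 5'-Lys array (log2 ratio -0.62), and had -0.30 and -0.41 on the Asp arrays. Its 3 probes gave -0.67, -0.07 and -1.11 on the 5'-Lys array, at Cy3 intensities of 12500, 228 and 6.0, so the mean includes a probe at the floor. In the same order they gave -0.56, 0.38 and -0.73 on the 5'-Asp array and -0.57, 0.08 and -0.74 on the 3'-Asp array. The brightest probe was thus alike on all arrays. With normexp background correction the mean ratio on the 5'-Lys array was -0.32, and 4 of 9 other settings kept it past 1.5-fold.

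In the transmitter group 4 of 12 genes were measured and none was 1.5-fold away against its own array's Cy5. SLC6A6, the taurine carrier, had 0.27, 0.39 and 0.23, SLC6A8, the creatine carrier, 0.01, -0.27 and 0.01, and SLC6A9, the glycine carrier GlyT1, -0.20, 0.07 and -0.27. The brighter of 2 SLC6A9 probes gave -0.28, -0.19 and -0.44, and the dimmer one -0.12, 0.32 and -0.09. The Cy5 SD of SLC6A9 was 0.47. With the mean Cy5 as the control after Aquantile scaling its ratios were 0.29, -0.27 and -0.42. SLC6A10P, a pseudogene of SLC6A8 that may share its probe binding, had 0.16, -0.07 and 0.12. SLC6A16, an orphan member, had 0.07, -0.05 and -0.11, so its columns were close on each array. Its intensities were 261 and 246 on the 5'-Lys array, 77.6 and 79.3 on the 5'-Asp array, and 138.9 and 150.2 on the 3'-Asp array. The arrays thus differ more than the columns, with a Cy5 SD of 0.70, the highest among the measured members, and a Cy3 SD of 0.76. With the mean Cy5 of the 3 arrays as the control its ratios were 0.67, -0.72 and -0.04 after Aquantile scaling and 0.71, -0.80 and -0.004 without it, past 1.5-fold on the first and second of these arrays.

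**Figure D3:**
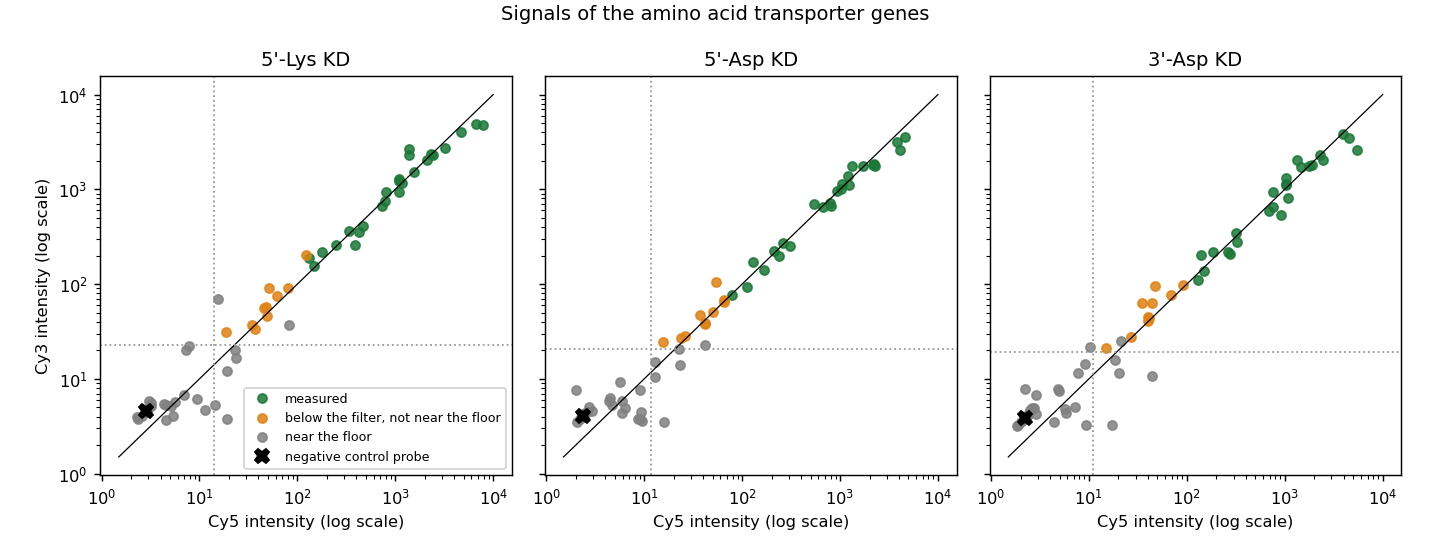
Cy3 against Cy5 intensity of all 62 genes on each array, both on log scales, with the line of equality, the negative control probe (cross) and dotted lines at 5 times its signal. Measured genes run along the line, while the dimmest genes gather around the negative control, above the line.

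The remaining 37 genes were below the filter, and for most the ratio says little about the RNA. The negative control probe had 4.59 in Cy3 and 2.81 in Cy5 on the 5'-Lys array, 4.1 and 2.36 on the 5'-Asp array, and 3.88 and 2.20 on the 3'-Asp array. Its log2 ratios were 0.69, 0.78 and 0.82, so a probe without signal appears higher in Cy3. A gene with any signal under 5 times that probe's was taken as near the floor, which held for 27 members (43.5%, beside 35.4% of all genes), for 19 of them in all 6 columns. The median ratio of these 19 was 0.64, 0.60 and 0.79, and that of all 5241 such genes 0.65, 0.76 and 0.79. SLC36A2, SLC6A12, SLC6A14, SLC6A15, SLC7A3 and SLC7A11-AS1 were within 0.1 of the control's ratio on every array.

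At least 2-fold away on some array were 14 of the 37, of which 13 were near the floor. The exception was SLC6A17, a vesicular carrier of neutral amino acids in neurons, with 91.6 in Cy3 and 51.6 in Cy5, 106 and 54.3, and 96.3 and 47.5. Cy3 was the brighter by a like amount on all arrays, with log2 ratios of 0.81, 0.95 and 1.02.

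Promoter windows (250 bases before to 50 after a transcript start, NCBI RefSeq, GRCh38.p14) were listed for 45 of the 62 genes and 20 of the 25 measured ones. They were searched on both strands for 3 motifs. SLC7A11 had no listed window, so it was not searched for any of them. TGATGNAA, the core of the element that ATF4 binds with C/EBP partners, was in a window of 6 of the 45 genes, 5 of the 20 measured (SLC1A3, SLC1A5, SLC38A1, SLC3A2 and SLC7A1) and 1 of the 25 others (SLC1A4). It was in 4.46% of all 27305 genes with a window and in 2.42% of the 8305 measured ones. CACGTG, the core bound by TFEB and other E-box factors, was in 10 of 45, 6 of 20 and 4 of 25, beside 8.77% of all genes and 12.97% of measured ones. TGACNNNGC, the core of the antioxidant response element, was in 7 of 45, 4 of 20 and 3 of 25, beside 16.1% and 19.6%. The differences between these shares were not tested. A match describes letters and not a binding site. Measured genes with CACGTG had ratios on both sides of 0. Those with TGATGNAA were below 0, except SLC1A3 on the 5'-Lys array (0.06) and SLC7A1 on the 5'-Asp array (0.02). The 4 measured genes with TGACNNNGC are among these 5 genes. Of all 25 measured members 14, 16 and 15 were below 0, with the arrays ordered as for the ratios. Some values below 0 were small, as for SLC1A5 (-0.05) and SLC7A1 (-0.08) on the 5'-Lys array and SLC7A1 (-0.09) on the 3'-Asp array. The signs on both Asp arrays would turn under the column names. A link between match and ratio was not tested. The windows below are of the lysosomal SLC38A7, past 1.5-fold on 2 arrays, and of SLC3A2, SLC38A1 and SLC7A1, which hold the ATF4 core but differ in their ratios. Capitals mark CACGTG in the first and TGATGNAA, or its reverse complement, in the other 3.
SLC38A7, chr16:58684721-58685020, minus strand: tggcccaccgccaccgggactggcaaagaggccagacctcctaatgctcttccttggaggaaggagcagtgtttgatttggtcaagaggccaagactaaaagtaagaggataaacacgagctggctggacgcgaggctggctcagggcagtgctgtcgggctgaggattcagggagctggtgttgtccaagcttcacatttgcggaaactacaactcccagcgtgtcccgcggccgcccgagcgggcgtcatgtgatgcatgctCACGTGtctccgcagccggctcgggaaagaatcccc
SLC3A2, chr11:62881449-62881748, plus strand: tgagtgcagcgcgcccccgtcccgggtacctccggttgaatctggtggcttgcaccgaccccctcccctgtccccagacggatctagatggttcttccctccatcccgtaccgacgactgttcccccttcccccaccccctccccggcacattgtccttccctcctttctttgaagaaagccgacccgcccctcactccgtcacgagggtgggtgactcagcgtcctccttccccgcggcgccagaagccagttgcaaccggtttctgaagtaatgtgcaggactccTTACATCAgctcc
SLC38A1, chr12:46266467-46266766, minus strand: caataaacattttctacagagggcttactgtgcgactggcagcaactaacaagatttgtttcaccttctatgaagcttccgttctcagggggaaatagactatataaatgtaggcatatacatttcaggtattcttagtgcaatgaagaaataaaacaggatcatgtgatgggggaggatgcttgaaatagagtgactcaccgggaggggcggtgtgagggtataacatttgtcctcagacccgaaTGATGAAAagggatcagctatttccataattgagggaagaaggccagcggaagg
SLC7A1, chr13:29595639-29595938, minus strand: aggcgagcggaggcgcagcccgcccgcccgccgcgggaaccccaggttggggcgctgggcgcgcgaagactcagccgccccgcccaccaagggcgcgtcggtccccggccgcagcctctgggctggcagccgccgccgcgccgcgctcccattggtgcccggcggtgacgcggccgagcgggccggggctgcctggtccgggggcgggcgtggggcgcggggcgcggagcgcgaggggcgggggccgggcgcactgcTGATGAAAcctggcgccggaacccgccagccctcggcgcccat

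Carriers outside these families were followed as a list of 15, of which 9 were measured, with median log2 ratios of 0.00, 0.15 and 0.07. SLC25A22, a mitochondrial glutamate carrier, was higher on all arrays (0.80, 0.96 and 0.51), past 1.5-fold on the 5'-Lys and 5'-Asp arrays. SLC66A1, which exports lysine and arginine from lysosomes, was lower (-0.72, -0.58 and -0.99), past 1.5-fold on the 5'-Lys and 3'-Asp arrays, at intensities of 150622 to 321354 where saturation was not checked. The list thus had 2, 1 and 1 of 9 past 1.5-fold, beside the same 11.4%, 7.89% and 4.86% of all measured genes, and the difference was not tested. SLC25A12, a mitochondrial exchanger of aspartate for glutamate, had -0.40, -0.55 and 0.22, and its relative SLC25A13 had -0.19, 0.03 and 0.07.

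Of 24 amino acid sensing genes 20 were measured. On the 5'-Lys array CASTOR1, an arginine sensor, was higher (0.86), and EIF2AK4, the kinase GCN2 that senses uncharged tRNA, and SESN1, of the sestrin family, were lower (-0.63 and -0.79). On the 5'-Asp array SESN3 was higher (0.88) and LAMTOR4, a subunit of the lysosomal Ragulator, lower (-0.64), and on the 3'-Asp array LAMTOR4 alone was past 1.5-fold (-0.72). These are 3, 2 and 1 of 20, near the 11.4%, 7.89% and 4.86% of all measured genes, and the list medians were -0.13, 0.02 and -0.03. ATF4 had -0.14, -0.31 and -0.06. ASNS, CHAC1, DDIT3 and TRIB3, which ATF4 is known to induce, were all below 0 on each array without reaching 1.5-fold. ASNS, the asparagine synthetase, had -0.32, -0.54 and -0.58 beside a Cy5 SD of 0.21. CHAC1 had -0.09, -0.57 and -0.22 beside an SD of 0.55, and DDIT3 -0.43, -0.02 and -0.24 beside 0.08. TRIB3 had -0.21, -0.26 and -0.15 beside 0.13. By the column names the values on the Asp arrays would be above 0. ATF4 protein and its activity were not measured.

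**Figure D4:**
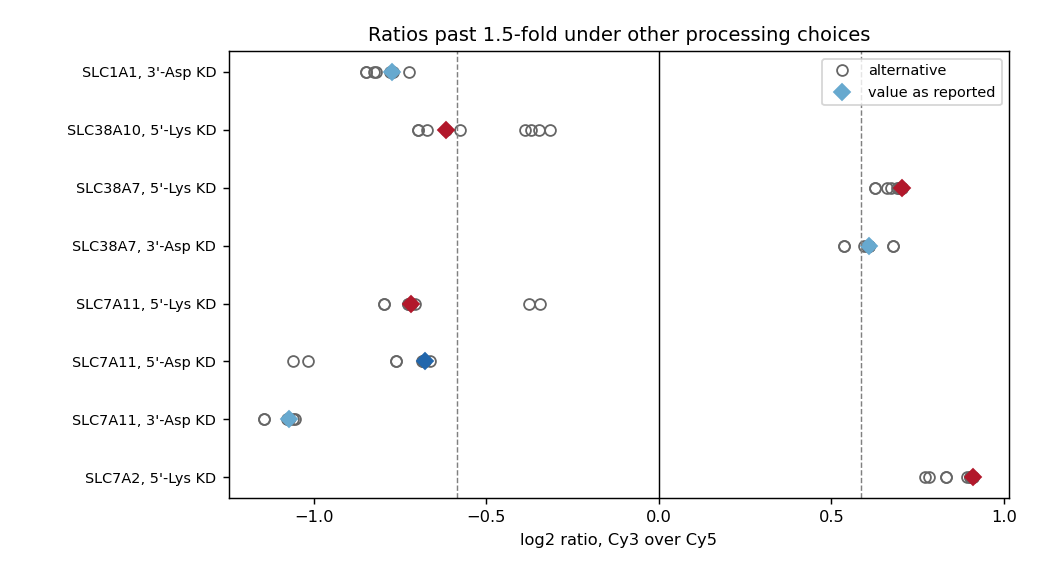
Log2 ratios past 1.5-fold (diamonds) beside their values under the other processing choices that keep the direction (open circles), with dashed lines at 1.5-fold. SLC38A10 on the 5'-Lys array, SLC7A11 on the 5'-Lys array and SLC38A7 on the 3'-Asp array have values inside the lines.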

How the data were processed

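Total RNA of LNCaP cells was extracted with TRIzol and run on 2-colour arrays by a service company, per the labels. Each deposited table gives intensities of 34183 probes, 56 of them controls, in 2 columns. The file headers call them raw, but medians of both columns were close and all values positive, so they were used as given. The deposited signed fold scores equal first over second column times 1 constant per array. The extraction software is not given in these sources, and saturation flags were not used.

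Symbols came from GEO's platform annotation, which can be old. For 25511 probes the symbol was set through a RefSeq accession, whether or not that changed it. All 62 members kept their platform symbol. Probes of 1 gene were averaged as log2 signals, genes at or above the 50th percentile of mean signal were taken as measured, and ratios were centred on the array median. Only measured members, those below the filter that were 2-fold away or carry lysine or aspartate, and SLC7A5 and SLC7A11-AS1, chosen after their values were seen, are named with values. Members, lists and thresholds were chosen with earlier results of these data known. Alternatives were normexp (offset 50), loess, and the mean Cy5 as control with Aquantile scaling, in limma 3.58.1 (R 4.3.3), the deposited folds, other filters, centring, probes, direction and threshold, computed in Python 3.11.15, numpy 2.4.6 and pandas 2.3.3. The steps were tested on simulated arrays. The number of arrays limits the precision.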

Additional observations from a re-analysis of the deposited data

How the results depend on the processing

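The median ratios of the measured members were recomputed under 12 other settings, and the counts at 1.5-fold (4, 1 and 3 for 5'-Lys KD, then 5'-Asp KD, then 3'-Asp KD) under 13. Counts not given here stayed within 1.5 times the reported ones, and medians within 0.12. With the mean Cy5 of the 3 arrays as the control the counts on the Asp arrays became 2 and 5, both with and without Aquantile scaling. Without the signal filter they were 22, 18 and 21, and the 3'-Asp median turned from -0.093 to 0.061. That setting adds the genes at the floor. At 2-fold the counts were 0, 0 and 1. By the column names the Asp medians were 0.13 and 0.093, and SLC7A11 had 0.68 and 1.07, SLC1A1 0.77 and SLC38A7 -0.61. The cause of that disagreement between labels and names was not tested. By the column names all 50 single-gene values of the Asp arrays changed sign, 4 of them past 1.5-fold. Of the 714 single-gene values under the other settings 622 moved by less than the Cy5 SD of their gene and 92 by more, and 47 changed sign, none of which was past 1.5-fold as reported. The mean Cy5 without Aquantile scaling, leaving out probes near the floor and leaving out the 4 members that are no transporter gene were chosen after seeing the data. No paired analysis was possible because each knockdown has 1 array.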

Other observations

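Some members lie side by side in the genome, per the RefSeq gene order. On chromosome 12 SLC38A1, SLC38A2 and SLC38A4 follow each other, and SLC38A4 was near the floor in all columns while both others were measured. On chromosome 5 SLC36A1 was measured, and SLC36A2 and SLC36A3 beside it were at the floor. SLC7A6OS, next to SLC7A6 on chromosome 16, had log2 ratios of -0.04, -0.27 and -0.23 after 5'-Lys KD, then 5'-Asp KD, then 3'-Asp KD, where SLC7A6 had 0.27, 0.32 and 0.52.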
